A study of Mus musculus with 19 samples.

Results

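The genes that mark the hindlimb and its long axis were followed in single cells from the Achilles tendon site of mice. The set held 10 genes of the 27998 in the count files, found by symbol: the homeobox genes Hoxa10, Hoxa11, Hoxa13, Hoxc8, Hoxc9, Hoxc10, Hoxd9 and Hoxd10, and the hindlimb factors Tbx4 and Pitx1. The genes were listed by name for what they are known to do, and the rule used no measured value. The list was made with earlier results of these data known.

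The series was a model of heterotopic ossification, the growth of bone in soft tissue after trauma, made in mice by a dorsal burn together with cutting of the Achilles tendon. Tissue of the tenotomy site was digested with collagenase and dispase, and cells were sequenced with droplets that tag each transcript near its 3′ end with a unique molecular identifier (UMI). There were 19 libraries: 4 at day 0, which the study describes as uninjured although the labels carry the injury text, 3 at day 3, 4 at day 7, 4 at day 21, and 4 from mice given a CD47 activating peptide. The peptide was injected into the peritoneum daily at 10 mg/kg from 3 days before to 3 days after the injury, and tissue was taken at day 7. For 1 of these 4 libraries the day came from the study's methods, and the labels name no vehicle for the other day 7 mice, called untreated here, while the study describes this comparison as one against PBS. The mice were C57BL/6J young adult males; the labels also name LysmCre/Tgfb1fx/fx mice, in which a myeloid promoter drives Cre, for the series as a whole, and give no genotype for a single library. Nothing in the labels says whether libraries of a group came from separate animals, so p-values measure the spread between libraries, which may be technical; the study says that its replicates were meant to show the variation between mice.

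After filters 39541 cells remained, 571 to 3668 per library, with a median of 3414 to 12406 UMIs per cell. Of these, 3321 cells were in clusters left unnamed. The rest fell into 17 named types, named without use of any Hox or limb gene. Among them were 11375 stromal-like, 3679 tenocyte-like, 1912 mural-like and 3062 endothelial-like cells. Pdgfra, a receptor of connective tissue fibroblasts, was found in 76.8% of stromal-like cells at day 0 and 75.1% at day 7. Libraries shared between 0 and 22 cell barcodes a pair, with a median of 4. Levels are given as CPM, the UMIs of a gene scaled to a common total over the summed cells of a type in a library. Tests were made on these sums with edgeR's quasi-likelihood test, with Benjamini-Hochberg adjustment over all genes tested and a threshold of 0.05. Levels are compared within a gene, since counts near the 3′ end do not give levels per length.

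Hox proteins are transcription factors that give cells their place along the body and limb axes. The genes lie in clusters, and the order within a cluster follows the order in which the genes are used from the trunk to the tip of the limb. Pitx1 and Tbx4 are the transcription factors of the hindlimb, and Tbx5 has the place of Tbx4 in the forelimb. Adult fibroblasts are known to keep a record of their site of origin in the Hox genes they express. Hox proteins bind DNA together with partners of the TALE family, such as Meis proteins.

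On the GRCm38 mouse assembly the members lie on 5 chromosomes, and all are protein coding. Hoxa10 (chr6:52231197-52240854), Hoxa11 (chr6:52242106-52245810) and Hoxa13 (chr6:52257694-52260880) are read from the minus strand. Hoxc10 (chr15:102966796-102971893), Hoxc9 (chr15:102976439-102985099) and Hoxc8 (chr15:102990607-102994111) are on the plus strand, as are Hoxd10 (chr2:74691924-74695105) and Hoxd9 (chr2:74697727-74700208). Tbx4 is at chr11:85886422-85916097 on the plus strand and Pitx1 at chr13:55825051-55836192 on the minus strand. Exons of Hoxc10 overlap those of Hoxc5 on the same strand, and Pitx1 overlaps Gm28760 on the same strand. Reads from the shared bases cannot be assigned to a single gene by position, and how they were counted was not examined.

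The promoters of Hoxd10, Hoxd9 and Hoxa10 are shown because the results in endothelial-like cells turn on the first pair and those in stroma on the last, which had the largest difference in CPM there. Of the 10 members 6 had a promoter in the RefSeq table of GRCm38.p6, and each sequence runs from 250 to 51 bases before the start, 5′ to 3′ on the strand of the gene. Capitals mark the letters of a motif that was searched on both strands: TTTAT, the core bound by posterior Hox proteins, CCGGAA, bound by ETS factors, and TATAAA, the TATA box.
Hoxd10, chr2:74691641-74691840, plus strand: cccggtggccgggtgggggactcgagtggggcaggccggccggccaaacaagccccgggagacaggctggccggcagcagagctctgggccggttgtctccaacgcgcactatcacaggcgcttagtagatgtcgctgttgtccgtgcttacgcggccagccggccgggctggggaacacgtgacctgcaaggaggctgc
Hoxd9, chr2:74697513-74697712, plus strand: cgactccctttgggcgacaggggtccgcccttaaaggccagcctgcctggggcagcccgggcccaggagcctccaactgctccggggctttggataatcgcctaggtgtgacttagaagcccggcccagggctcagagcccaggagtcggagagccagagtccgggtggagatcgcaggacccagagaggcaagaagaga
Hoxa10, upstream start, chr6:52240905-52241104, minus strand: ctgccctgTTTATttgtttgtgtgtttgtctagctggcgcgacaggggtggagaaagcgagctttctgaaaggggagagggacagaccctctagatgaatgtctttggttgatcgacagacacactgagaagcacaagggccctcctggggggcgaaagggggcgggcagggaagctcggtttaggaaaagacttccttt
Hoxa10, downstream start, chr6:52234990-52235189, minus strand: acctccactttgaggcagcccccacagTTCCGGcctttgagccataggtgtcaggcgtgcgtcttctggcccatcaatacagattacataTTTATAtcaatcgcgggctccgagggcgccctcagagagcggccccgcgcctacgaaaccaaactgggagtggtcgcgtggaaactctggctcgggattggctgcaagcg
The windows of the HoxD genes were rich in G and C, at 69.5% for Hoxd10 with 18 CpG and 65.5% for Hoxd9 with 10 CpG, beside a median of 51.5% and 4 CpG over 32851 promoters. Neither held a searched motif. The upstream Hoxa10 window held TTTAT, and the downstream window held CCGGAA on the other strand and TTTAT overlapping TATAAA of the other strand. Of all promoters 31.6% held TTTAT, 8.03% CCGGAA, 9.14% TATAAA and 13.1% TGACAG, the MEIS core that was also searched.

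In stromal-like cells the summed level of the members was lower in every library of day 3 (83.7 to 107.4 CPM) than in any of day 0 (143 to 181.2 CPM). Its mean was 163.6 ± 15.7 CPM (SD, n = 4) at day 0, 94.6 ± 12.0 (n = 3) at day 3, 134.1 ± 5.16 (n = 4) at day 7 and 168.7 ± 16.5 (n = 4) at day 21. Hoxa10 made up most of the difference between the days, and Pitx1 differed in the other direction. Hoxa11, Hoxd10 and Tbx4 did not pass the test between any of the days compared.

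At day 3 against day 0, 7 of the 10 members passed the test, 5 lower and 2 higher. Over all 13688 genes tested, 30.5% were lower and 31.5% higher, so that a share of calls on this scale is the background of this contrast. The median log2 fold change was -0.60 over the members and 0.02 over all genes.

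Hoxa10, which patterns the upper segment of the limb, gave 49.5, 74.5, 71.4 and 68.9 CPM in the 4 libraries of day 0 and 20.3, 22.8 and 17.7 CPM in the 3 of day 3. No library of day 3 reached the lowest of day 0, and the level was 2.88-fold lower (log2 fold change -1.53 ± 0.151, SE; edgeR adjusted p = 5.1e-08). Hoxc9, a gene of the trunk and hindlimb level, gave 16.5, 21.8, 19.9 and 22.0 CPM at day 0 and 7.54, 6.71 and 8.02 at day 3, again without overlap (-1.27 ± 0.155; adjusted p = 7.49e-07). Hoxc8, its neighbour in the cluster, gave 6.88, 17.2, 5.37 and 6.39 CPM at day 0 and 2.65, 2.21 and 3.68 at day 3. Its second library at day 0 stood above the other 3, and all of day 0 stood above day 3 (-1.37 ± 0.287; adjusted p = 0.000357). Hoxd9 gave 8.25, 3.44, 8.59 and 9.24 CPM at day 0 and 2.23, 4.5 and 1.84 at day 3, with 1 library of each day in the range of the other (-1.25 ± 0.361; adjusted p = 0.00533).

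Pitx1 gave 9.63, 11.4, 15 and 19.9 CPM at day 0 and 20.6, 28.4 and 16.2 at day 3. The ranges overlapped in 1 library each, and the level was 1.74-fold higher at day 3 (log2 fold change 0.80 ± 0.215; adjusted p = 0.00301). The other 2 calls were the weakest. Hoxc10 was 23.8 ± 3.90 CPM at day 0 and 17.1 ± 1.09 at day 3 (-0.36 ± 0.145; adjusted p = 0.0355), and lost its call under 5 of 11 other settings and in 5 of 7 fits that left out 1 library. Hoxa13, the gene of the foot, had 1 UMI in all of day 0 against 31 at day 3, a ratio of pooled levels of 6.60 (95% counting interval 1.1 to 269; edgeR adjusted p = 0.0474), and this call too was lost under several alternatives.

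The libraries of day 3 were unlike the others in more than the member genes. Of their stromal-like cells 90.8% were in a single cluster, cluster 18, led by Prg4, Cxcl14 and Aldh1a2, while 80.8% of those of day 0 were in cluster 10, led by Myoc, Gsn and Inmt. Prg4 is on the list of synovial lining markers, and clusters best matched by that list were counted as stromal-like. Whether cluster 18 was such a cluster is not given here. At day 3 a stromal-like cell had a median of 34710 UMIs against 5174 at day 0, and Ptprc, the common leukocyte antigen, had a UMI in 48.4% of cells against 0.846%. The summed level of 12 monocyte and macrophage markers, none of them at 0, was 82.4 to 196.6 CPM at day 0 and 1521 to 1806 at day 3, and that of 7 granulocyte markers 55 to 98.5 and 1438 to 2446. The 12 stromal markers summed to 49820 to 59880 CPM at day 0 and 28230 to 35510 at day 3. The part of these differences in the levels of the members was not tested. Leaving out cluster 18 took away 746 of the 822 stromal-like cells of day 3, so that fit rests on few cells of several other clusters. In it 4 members passed at day 3: Hoxa10 (log2 fold change -0.95; adjusted p = 0.00125), Hoxc9 (-2.48; 2.61e-05) and Hoxc8 (-2.94; 0.00216) lower and Hoxd10 (2.72; 0.0035) higher, while Hoxd9 (-0.12; 0.869), Hoxc10 (0.22; 0.584) and Pitx1 (0.75; 0.0591) no longer passed. The share of all genes called in that fit is not given here, so no result is read from the count. Fewer cells of a kind and less RNA of a gene per cell cannot be told apart in such sums.

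**Figure D1:**
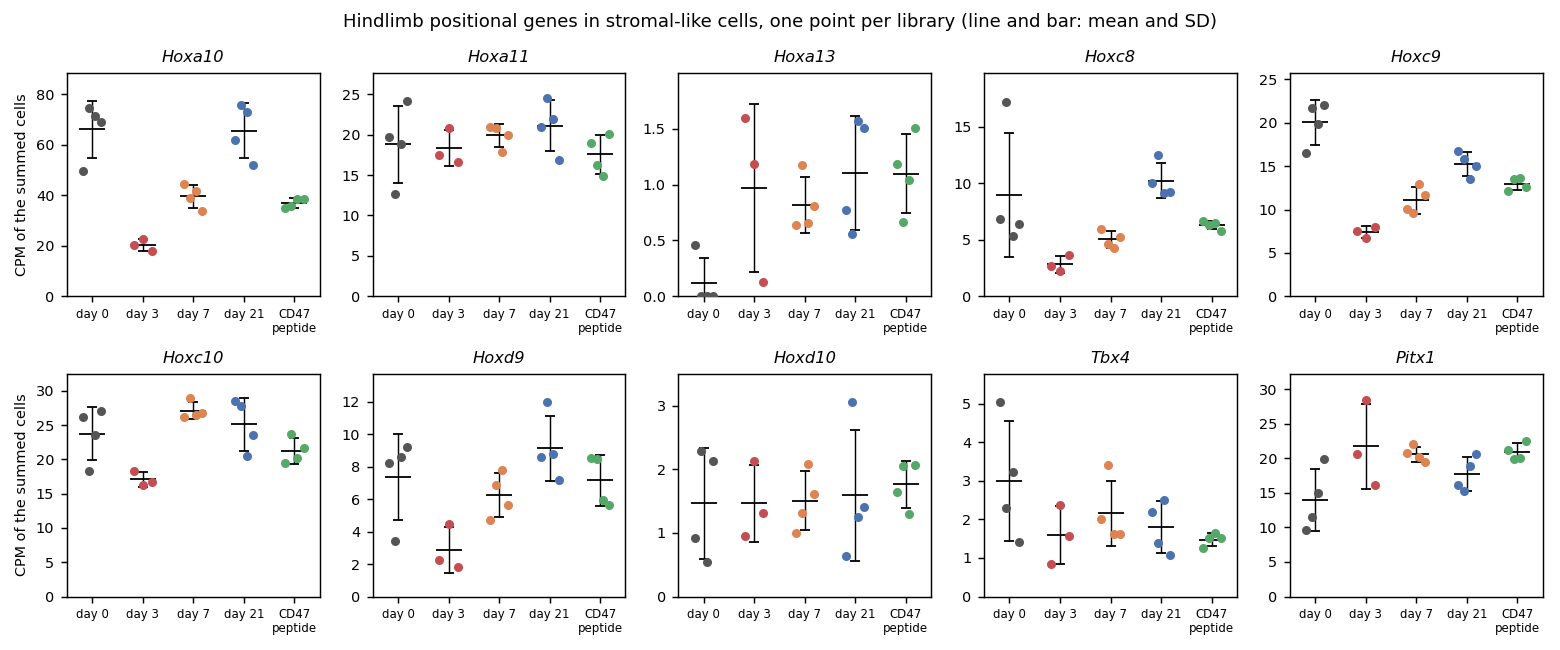
Level of each of the 10 members in stromal-like cells, in CPM of the summed cells (vertical axis from 0, a scale for each gene), by group along the horizontal axis; points are libraries, the line is the mean and the bar the SD. Hoxa10 is lowest in the 3 libraries of day 3 (17.7 to 22.8 CPM) and Pitx1 is lower at day 0 (14 ± 4.53 CPM) than at day 3 (21.7 ± 6.20 CPM).

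At day 7 the same comparison with day 0 called 4 members. Over all genes 28.8% were higher and 25.9% lower. Hoxa10 gave 44.4, 39.1, 41.5 and 33.6 CPM, all below day 0 (-0.66 ± 0.134; adjusted p = 0.000323). Hoxc9 gave 10.1, 9.57, 12.9 and 11.7 CPM, also all below day 0 (-0.78 ± 0.138; adjusted p = 9.06e-05). Pitx1 gave 20.8, 22.1, 20.2 and 19.5 CPM, so that only the fourth library of day 0 lay in their range, and was higher (0.62 ± 0.205; adjusted p = 0.0148). Without the first library of day 0 it was at 0.42 with an adjusted p of 0.112. Hoxc8 gave 5.99, 4.65, 4.30 and 5.25 CPM, which overlapped day 0 (-0.61 ± 0.251; adjusted p = 0.0463). That call was lost in 5 of 8 fits that left out 1 library, and without the second library of day 0 the log2 fold change was -0.27 (adjusted p = 0.393). Hoxd9, at 6.26 ± 1.37 CPM, did not pass (-0.27; adjusted p = 0.494).

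From day 7 to day 21 3 members rose and none fell, beside 19.1% of all genes higher and 19.5% lower. Hoxa10 gave 62.0, 75.7, 72.9 and 51.9 CPM at day 21, above every library of day 7 (0.73 ± 0.122; adjusted p = 0.000138). Hoxc8 gave 10.0, 12.5, 9.11 and 9.26 CPM, 2.04-fold higher than at day 7 and without overlap (1.03 ± 0.194; adjusted p = 0.000413). Hoxc9 gave 16.7, 15.9, 13.5 and 15 CPM (0.49 ± 0.118; adjusted p = 0.00285), and its lowest library stood above the highest of day 7. Each of these 3 calls was kept when any single library of either day was left out.

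Day 21 was then set against day 0, where 31.5% of all genes passed. No member passed by edgeR or by DESeq2, and 1 had an unadjusted p under 0.05. That gene was Hoxa13, with 27 UMIs at day 21 (pooled ratio 7.17, 95% counting interval 1.18 to 293.4; edgeR adjusted p = 0.0711). Hoxa10 was at 66.1 ± 11.3 CPM at day 0 and 65.6 ± 10.9 at day 21, and Pitx1 at 14 ± 4.53 and 17.7 ± 2.44.

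The other members passed no test between the days compared. Hoxa11, the gene of the lower leg, had means of 18.8 ± 4.76 CPM at day 0, 18.3 ± 2.24 at day 3, 19.9 ± 1.42 at day 7 and 21.1 ± 3.16 at day 21. Hoxd10 had means between 1.47 and 1.77 CPM in the 5 groups. Tbx4 was low in stroma, with 5.04, 2.29, 3.22 and 1.42 CPM at day 0 and means of 1.60 ± 0.759 at day 3, 2.16 ± 0.844 at day 7 and 1.79 ± 0.671 at day 21. At day 3 its log2 fold change of -0.84 did not pass (adjusted p = 0.128).

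The stromal-like cells were made of 8 clusters whose own genes differ between the days, and Hoxa10 had different levels among these clusters within a day, a difference that was not tested. At day 7 it was 72.7 ± 8.56 CPM (SD over 4 libraries) in cluster 1, led by Sfrp4, Eln and Clec3b, and 29.8 ± 3.96, 31.8 ± 4.79 and 31.2 ± 4.60 CPM in clusters 6 (Gzme and Sfrp1), 11 (Crabp1 and Col7a1) and 15 (the cell cycle genes Cdc20 and Ube2c). In cluster 10 it was 74.0 ± 10.8 CPM at day 0, 56.7 ± 33.6 at day 7 and 67.0 ± 20.4 at day 21. Cluster 1 held 30.4% of stromal-like cells at day 7 and 61.4% at day 21. Within cluster 10 alone Hoxa10 was at -0.45 from day 0 to day 7 (edgeR adjusted p = 0.349) and at 0.24 from day 7 to day 21 (adjusted p = 0.763), Hoxc9 was at -0.29 and 0.90 (adjusted p = 0.715 and 0.226), and neither passed. Within cluster 17, led by Has1, C3 and Gfpt2, Hoxa10 was at -0.24 from day 0 to day 7 (adjusted p = 0.72). Cluster 31, led by Sfrp5, Krt19 and Cldn1, had the highest Hoxc8 of day 0 at 31.1 ± 17.7 CPM in 3 libraries, with 8 UMIs over all of day 0, and with it left out Hoxc8 no longer passed at day 7 (-0.42; adjusted p = 0.165) and passed at day 21 against day 0 (0.63; adjusted p = 0.0466).

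**Figure D2:**
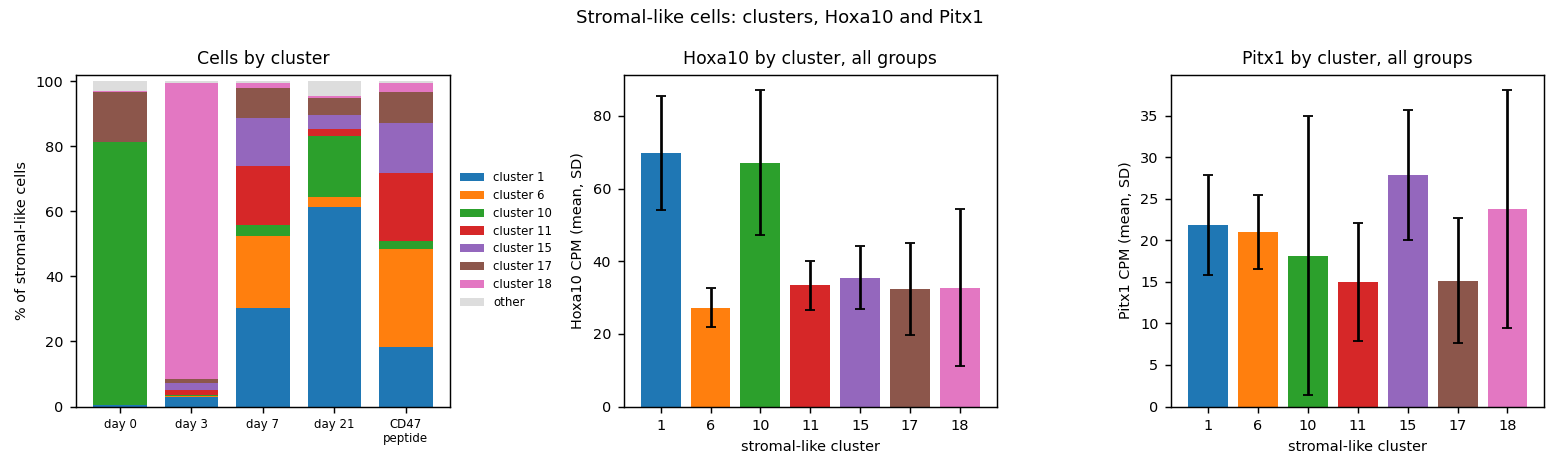
Left, percent of stromal-like cells in each cluster by group; middle and right, mean level of Hoxa10 and Pitx1 in CPM by cluster over all libraries with at least 10 cells of it (bars from 0; error bars are SD over libraries). Hoxa10 stands higher in clusters 1 and 10 than in clusters 6, 11 and 15, while the SDs of Pitx1 overlap among all 7 clusters drawn.

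Shares of cells with a UMI followed depth, so each cell was also thinned to 1500 UMIs. Unthinned, 50.2% of stromal-like cells had a UMI of any member at day 0, 88.5% at day 3, 75.4% at day 7 and 75.6% at day 21. Thinned, these were 22.5%, 12.4%, 18.1% and 21.8%, in the same order as the summed CPM of the 3 days after injury. The 5.84% of stromal-like cells of day 0 with fewer UMIs were left out. In monocyte/macrophage-like cells, which should lack these genes, the mean share was 3.18% unthinned, at a median of 6344 UMIs per cell, and 0.685% thinned, so the stromal shares stood above the shares found there. For Tbx4 and Hoxa13 the thinned stromal shares had means over libraries of 0.371% and 0.0873%. In a single library they were at most 1.29% and 0.417%. These shares are low, and no order is read from them.

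The CD47 peptide left all members short of the threshold in stromal-like cells, where 0.0438% of genes passed. No member passed by edgeR or DESeq2, and 2 had an unadjusted p under 0.05: Hoxc10, with 27.1 ± 1.25 CPM untreated and 21.2 ± 1.86 treated (log2 fold change -0.34 ± 0.104; edgeR adjusted p = 0.238), and Hoxc9 (0.23; adjusted p = 0.454). Hoxa10 was 34.9, 35.9, 38.6 and 38.4 CPM in the treated libraries, within the range of the untreated day 7, and Pitx1 was 20.9 ± 1.24 CPM.

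Tenocyte-like cells, named by Scx, Tnmd and other tendon genes, were few before injury. The 4 libraries of day 0 had 10 to 20 such cells each and 52 in all, and day 3 had 5 and was not tested. The cells of day 0 and those of day 7 were largely of different clusters: 98.1% of day 0 and 76.4% of day 21 were in cluster 16, where cartilage genes (Col2a1, Cilp2, Ucma) led although Tnmd had a UMI in 94.7% of its cells, and 97.8% of day 7 were in cluster 2, led by C1qtnf3, Scx and Aspn. The summed level of the 8 tendon markers ranged from 20340 to 27920 CPM over the day 0 libraries, from 2742 to 3426 over those of day 7 and from 7144 to 9204 over those of day 21. Of the 10 members 8 passed the filter on low counts.

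Hoxd9, a HoxD gene of the proximal limb bud, was higher in these cells before injury than at any later day tested. It gave 63.0, 41.8, 37.9 and 100.3 CPM at day 0 on 24 UMIs, and 12.1, 13.3, 9.05 and 9.93 CPM at day 7 on 303 UMIs. All 4 libraries of day 0 were above all of day 7, and the level was 4.29-fold lower at day 7 (log2 fold change -2.10 ± 0.405; edgeR adjusted p = 0.000597). At day 21 it gave 11.7, 14.9, 12.1 and 10.9 CPM, again below day 0 (-1.89 ± 0.399; adjusted p = 0.00184). Within cluster 16 alone it was lower at day 21 as well (-2.17; adjusted p = 0.00474), from 67.1 ± 31.4 CPM in 3 libraries to 13.2 ± 2.36 in 4. The same fit called Hoxa10 lower at day 21 (-1.22; adjusted p = 0.0286), which over all tenocyte-like cells did not pass (-0.76; adjusted p = 0.0943).

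Hoxa10 gave 136, 33.4, 152 and 55.8 CPM at day 0 on 38 UMIs and 30.8 ± 2.45 at day 7, which was lower (log2 fold change -1.28 ± 0.312; adjusted p = 0.00484). Its second library of day 0 was level with the highest of day 7, at 33.4 CPM. Hoxc9 gave 10.5, 50.1, 28.4 and 33.5 CPM at day 0, 13 UMIs in all, and 10.2 ± 1.67 at day 7 (-1.37 ± 0.444; adjusted p = 0.0341). These 3 were the members that passed at day 7, all lower, where 6.22% of all genes were lower and 13% higher. At day 21, 11.5% of genes were higher and 4.22% lower, and Hoxa11 was the other member that passed. It had 2 UMIs at day 0, in 2 of the 4 libraries, and 21.1 ± 2.82 CPM at day 21, a ratio of pooled levels of 4.23 (95% counting interval 1.16 to 35.0; edgeR adjusted p = 0.00877). The median log2 fold change of the members tested was -1.14 at day 7 and -0.73 at day 21, while that of all genes was itself at 0.25 and 0.26. These contrasts moved with the scaling: with RLE factors the median of all genes was 0.09 and 0.07, and higher genes made up 54.2% of calls at day 7 in place of 67.6%, and 58.4% at day 21 in place of 73.1% (45.7% and 48.3% by DESeq2).

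Pitx1 was 40.3 ± 18.5 CPM in tenocyte-like cells of day 0, 21.8 ± 4.09 at day 7 and 23.1 ± 1.08 at day 21, and did not pass. Tbx4 had 50 UMIs in these cells in all and none at day 0. With the peptide no member passed by edgeR or DESeq2 (0.108% of all genes did), and 1 had an unadjusted p under 0.05, Hoxc8 (0.80; edgeR adjusted p = 0.404).

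Mural-like cells, the pericytes and smooth muscle of vessel walls, showed a different set of members. Tbx4 had no UMI in 19872077, which allows a level of up to 0.151 CPM, Hoxd10 had 5 UMIs and Pitx1 44, or 2.21 CPM pooled (95% counting interval 1.61 to 2.97). The summed level of the members was 138.7 ± 11 CPM at day 0, 91.2 ± 17.1 at day 3, 139.3 ± 7.40 at day 7 and 140.9 ± 9.01 at day 21. Ptprc had a UMI in 30.5% of mural-like cells at day 3, against 0.546% at day 0 and 7.65% at day 7. The part of leukocyte RNA in the summed level was not tested. Of the 10 members 5 passed the filter on low counts.

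Against day 0 a pair of members moved at day 7, in opposite directions. Hoxc9 gave 21.3, 8.77, 11.9 and 9 CPM at day 0 on 11 UMIs and 29.9, 36.7, 24.7 and 33.2 at day 7 on 181 UMIs, with no overlap (log2 fold change 1.14 ± 0.374; edgeR adjusted p = 0.0156). Hoxd9 gave 12.8, 8.77, 15.9 and 18.0 CPM at day 0 on 12 UMIs and 5.98, 2.49, 3.43 and 3.61 at day 7 on 22 UMIs, again with no overlap (-1.98 ± 0.507; adjusted p = 0.00262). Over all genes 24.7% were higher and 20.2% lower. Hoxa10 was 46.1 ± 12.5 CPM at day 0 and 33.4 ± 6.06 at day 7 and did not pass (-0.58; adjusted p = 0.0605). Day 0 rested on 183 cells and 822247 UMIs, and leaving out the third or the fourth of its libraries left 1 call of these 2, that of Hoxd9.

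The mural-like cells of day 0 were 80.3% of cluster 19, led by the smooth muscle genes Myh11, Pln and Cnn1, and those of day 7 were 84.7% of cluster 14, led by the pericyte genes Rgs5, Higd1b and Kcnj8. The stromal markers summed to 1733 to 3122 CPM in mural-like cells of day 0 and 10460 to 11960 in those of day 7, and their part in the Hoxc9 level was not tested. At day 7 Hoxc9 was 33.5 ± 4.58 CPM in cluster 14 and 15.7 ± 9.46 in cluster 19. Hoxd9 was 15.9 ± 4.33 CPM in cluster 19 at day 0, 9.23 ± 10.7 in cluster 19 at day 7 and 2.53 ± 1.26 in cluster 14 at day 7. Within cluster 19 alone both genes fell below the filter on low counts. At day 21 no member passed by edgeR or DESeq2 and none had an unadjusted p under 0.05, where 24.8% of all genes passed, and with the peptide the same counts of 0 held beside 0.0108% of all genes.

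In endothelial-like cells, which line the blood vessels, 3 of the 10 members passed the filter on low counts. Hoxd9 and Hoxd10 were higher at day 7 and day 21 than at day 0, and Hoxa10 did not pass the test. Pitx1 had 10 UMIs and Tbx4 2 of 29707853 in all 19 libraries. The endothelial adhesion gene Pecam1 was at 878.2 to 1227 CPM in these cells.

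Hoxd9 gave 13.3, 12.3, 11.7 and 14.9 CPM at day 0 on 64 UMIs. At day 3 it gave 13, 22.9 and 16.3 CPM in 85 cells. At day 7 it gave 40.8, 48.7, 44.4 and 41.6 CPM on 340 UMIs, each library above the highest of day 0. The level was 3.36-fold higher (log2 fold change 1.75 ± 0.177; edgeR adjusted p = 3.24e-08). At day 21 it gave 24.5, 23.7, 27.4 and 32.9 CPM, without overlap with any earlier day, and was 2.10-fold higher than at day 0 (1.07 ± 0.191; adjusted p = 0.000276).

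Hoxd10, the next gene of the cluster, had a single UMI at day 0, in the third library at 0.903 CPM, and 0 in the other 3. It gave 3.56, 1.27 and 6.97 CPM at day 3 on 10 UMIs and 10.8, 12.6, 15.6 and 17.8 CPM at day 7 on 105 UMIs. At day 21 it gave 3.5, 4.90, 3.70 and 6.48 CPM on 31 UMIs. The libraries of day 7 were above those of every other untreated day. The ratio of pooled levels was 65.7 for day 7 over day 0 (95% counting interval 11.5 to 2617; edgeR adjusted p = 8.08e-08) and 23.0 for day 21 over day 0 (3.82 to 935.2; adjusted p = 0.000442). With 1 UMI at day 0 Hoxd10 passed the filter on low counts only through the other groups, where it was higher. These p-values are thus no independent support for a rise. At day 7, 29% of all genes were higher and 27.5% lower, and at day 21, 13.4% higher and 12.6% lower.

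Hoxa10 was 6.25 ± 2.38 CPM at day 0, 6.86 ± 1.24 at day 7 and 5.73 ± 3.25 at day 21 in these cells (adjusted p = 0.777 and 0.797). Thinned to 1500 UMIs, the share of endothelial-like cells with a UMI of Hoxd9 was 1.99% at day 0, 2.31% at day 3, 6.26% at day 7 and 3.44% at day 21; 10.3% of the cells of day 0 were too shallow for it. The unthinned share of day 3 was 36.7%, at a median of 20530 UMIs per cell.

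**Figure D3:**
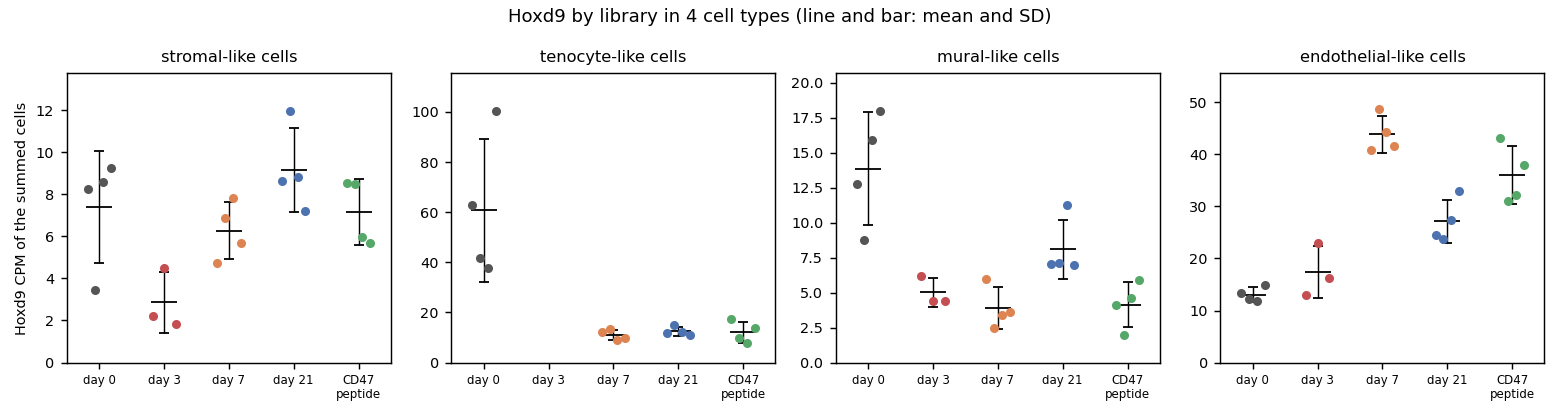
Hoxd9 in CPM of the summed cells (vertical axes from 0, a scale for each type) by group in the 4 cell types; points are libraries with at least 10 cells of the type, the line is the mean and the bar the SD, and day 3 has no tenocyte-like point. The 4 endothelial-like libraries of day 7 (40.8 to 48.7 CPM) lie above those of day 0, while the 4 tenocyte-like libraries of day 0 (37.9 to 100.3 CPM) lie above those of day 7.

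Here too the days differed in their clusters, though day 3 and day 7 were both mostly of cluster 12. Cluster 13, led by Timp4, Tcf15, Aqp7 and Gpihbp1, held 87.1% of endothelial-like cells at day 0, 3.53% at day 3, 5.2% at day 7 and 46.8% at day 21. Cluster 12, led by Plvap, Aplnr, Selp and Ackr1, held 5.58% at day 0, 92.9% at day 3, 90.4% at day 7 and 43.2% at day 21. Pooled Hoxd9 over all endothelial-like cells was 13.1 CPM at day 0, 17.3 at day 3 and 43.7 at day 7. Ptprc had a UMI in 40% of endothelial-like cells at day 3, against 1.02% at day 0 and 6.17% at day 7. The part of the cluster shares and of leukocyte RNA in these levels was not tested. Within cluster 12 Hoxd9 was 40.9 ± 13.2 CPM at day 0 on 9 UMIs, 16.9 ± 4.10 at day 3, 45.2 ± 4.32 at day 7 and 46.6 ± 8.27 at day 21. Within cluster 13 it was 12.7 ± 1.07 CPM at day 0 and 10.3 ± 5.36 at day 21, and 42.9 CPM in the 1 library of day 7 with at least 10 cells of it, where all libraries of day 7 had 4 UMIs in 32 cells. Fitted on cluster 12 alone, Hoxd9 did not pass at day 7 (0.48; adjusted p = 0.521) or day 21 (0.48; adjusted p = 0.648), and on cluster 13 alone it was at -0.30 at day 21 (adjusted p = 0.723). Hoxd10 had 0 UMIs in the 60 cells of cluster 12 at day 0, where it then had 14.6 ± 3.17 CPM at day 7 and 10.8 ± 6.26 at day 21. Its log2 fold changes within the cluster, which from 0 UMIs depend on the prior count, were 6.94 at day 7 (adjusted p = 0.0635) and 6.34 at day 21 (adjusted p = 0.217). Cluster 13 had 0 UMIs of Hoxd10 at day 0 in 937 cells and 0.364 CPM at day 21. The 6 lymphatic endothelial markers summed to 37.0 to 70.3 CPM in endothelial-like cells at day 0 and 27.6 to 55.5 at day 7, and the stromal markers to 875.2 to 1165 and 1615 to 2891 CPM; their part in these levels was not tested.

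**Figure D4:**
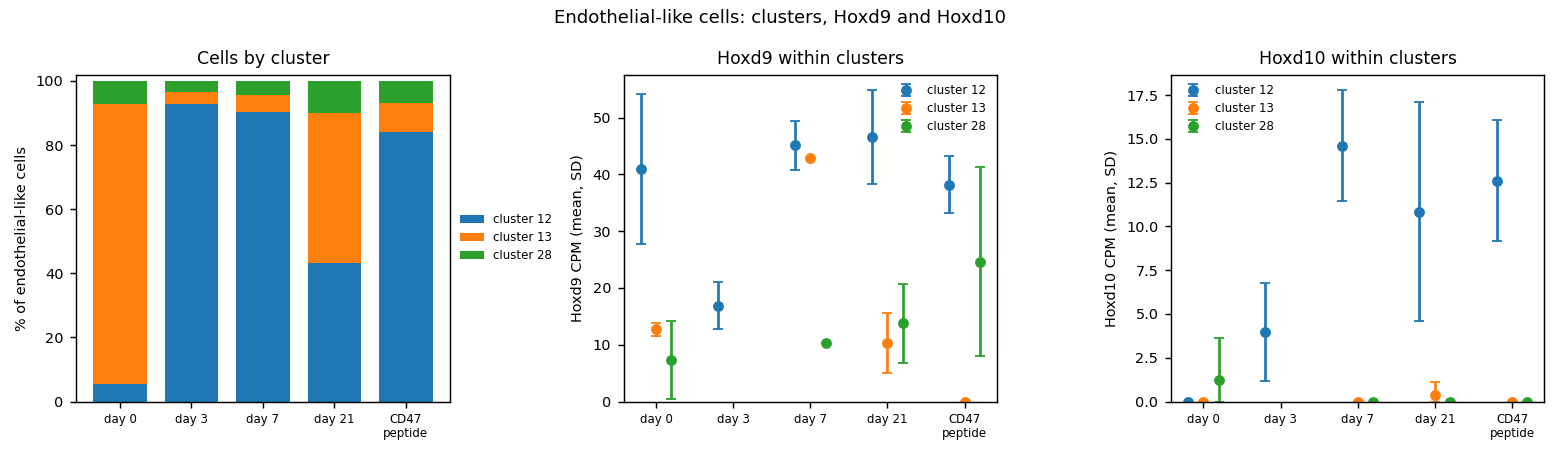
Left, percent of endothelial-like cells in each of 3 clusters by group; middle and right, Hoxd9 and Hoxd10 in CPM within each cluster (points are means over libraries with at least 10 cells of the cluster, bars are SD and end at 0; clusters 13 and 28 at day 7 and cluster 13 under the peptide rest on 1 library). Cluster 12 is at 40.9 CPM of Hoxd9 at day 0 and 45.2 CPM at day 7, and cluster 13 is at 12.7 CPM at day 0 and 10.3 CPM at day 21.

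With the peptide 0% of genes passed in endothelial-like cells, members included, by edgeR or by DESeq2, and 1 member had an unadjusted p under 0.05. Hoxd9 gave 43.1, 30.9, 32.3 and 37.9 CPM treated, 3 of the 4 below every untreated library of day 7 (-0.30; edgeR adjusted p = 0.667). Hoxd10 gave 7.99, 11, 13.2 and 13.6 CPM treated.

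Whether the members moved differently in endothelial-like and stromal-like cells was tested as an interaction of cell type and day with the library as a block, a test added after the data were seen. From day 0 to day 7, 2 of the 8 members tested passed, both with a rise in endothelial-like cells and no called change in stromal-like cells: Hoxd9 (log2 difference of the changes 2.02 ± 0.317; adjusted p = 0.000106) and Hoxd10 (5.78 ± 1.13; adjusted p = 0.000894), the latter from a single UMI at day 0. Hoxd10 entered this test only through other libraries, where it was higher, so its p-value is no independent support for a rise. Of all genes 13.7% were higher and 13.6% lower in this sense. Hoxa10 did not pass (0.78; adjusted p = 0.0956). From day 0 to day 21 none of 7 passed by edgeR, 1 had an unadjusted p under 0.05, and 14.7% of all genes passed. Hoxd9 was at 0.83 ± 0.360 (adjusted p = 0.144). Hoxd10 fell below the filter on low counts at this step, so its difference between the types at day 21 was not tested.

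The cell types were then compared within the libraries, with the library as a block. Pitx1 set stroma and tendon apart from the vessels. Its mean over all libraries was 18.9 ± 4.20 CPM in stromal-like, 27.5 CPM in tenocyte-like and 1.93 CPM in mural-like cells, and the log2 fold change of stroma was 5.95 against endothelial-like cells (edgeR adjusted p = 2.44e-16) and 3.37 against mural-like cells (7.84e-13). Against tenocyte-like cells the log2 fold change of stroma was -0.34 (adjusted p = 0.0013).

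Against endothelial-like cells 6 members could be tested, and all passed. Besides Pitx1, stroma was higher in Hoxa11 (5.07; adjusted p = 8.39e-15), Hoxc9 (4.17; 8.19e-14), Hoxc10 (3.78; 2.38e-13) and Hoxa10 (3.13; 5.45e-15). Hoxd9 was the exception among the 6 tested, 3.83-fold lower in stroma (-1.94 ± 0.174; adjusted p = 7.46e-10), with means of 6.76 ± 2.61 CPM in stromal-like and 28.0 CPM in endothelial-like cells. That fold pools all groups, and by the interaction test above the Hoxd9 difference between these types was larger at day 7 than at day 0. Hoxd10 fell below the filter on low counts and was not tested here. Its means were also lower in stromal-like (1.56 CPM) than in endothelial-like cells (7.05 CPM). Of all genes 38% were higher and 37.3% lower in stroma.

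Against mural-like cells 7 members were tested, where 32.9% of genes were higher and 31.2% lower in stroma. Besides Pitx1, Hoxa11 at 1.71 (adjusted p = 1.14e-10) and Hoxa10 at 0.43 (0.000258) were higher in stroma. Over all groups together the HoxC members were lower in stroma, with Hoxc8 at -1.25 (4.52e-08), Hoxc9 at -0.77 (0.000133) and Hoxc10 at -0.45 (7.32e-05). For Hoxc9 the direction was not the same on each day. At day 0 stroma was above mural-like cells in every library but the first, and at day 7 below them in every library. The types were not tested within a day. Hoxd9 did not pass (0.44; adjusted p = 0.0581). Against tenocyte-like cells 7 were tested in 16 libraries, where 19.7% of genes were higher and 18.9% lower, and 3 were lower in stroma: Hoxd9 (-0.88; 0.000128), Hoxc10 (-0.43; 7.37e-05) and Pitx1. The order of mean Hoxc10 levels was mural-like (36.2 CPM), tenocyte-like (35.3), stromal-like (23.2 ± 4.14) and endothelial-like. The tenocyte-like mean covers 16 libraries, none of day 3, and includes those of day 0 with few cells. Medians were 35.1 CPM in mural-like and 32.1 in tenocyte-like cells, which were not tested against each other.

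**Figure D5:**
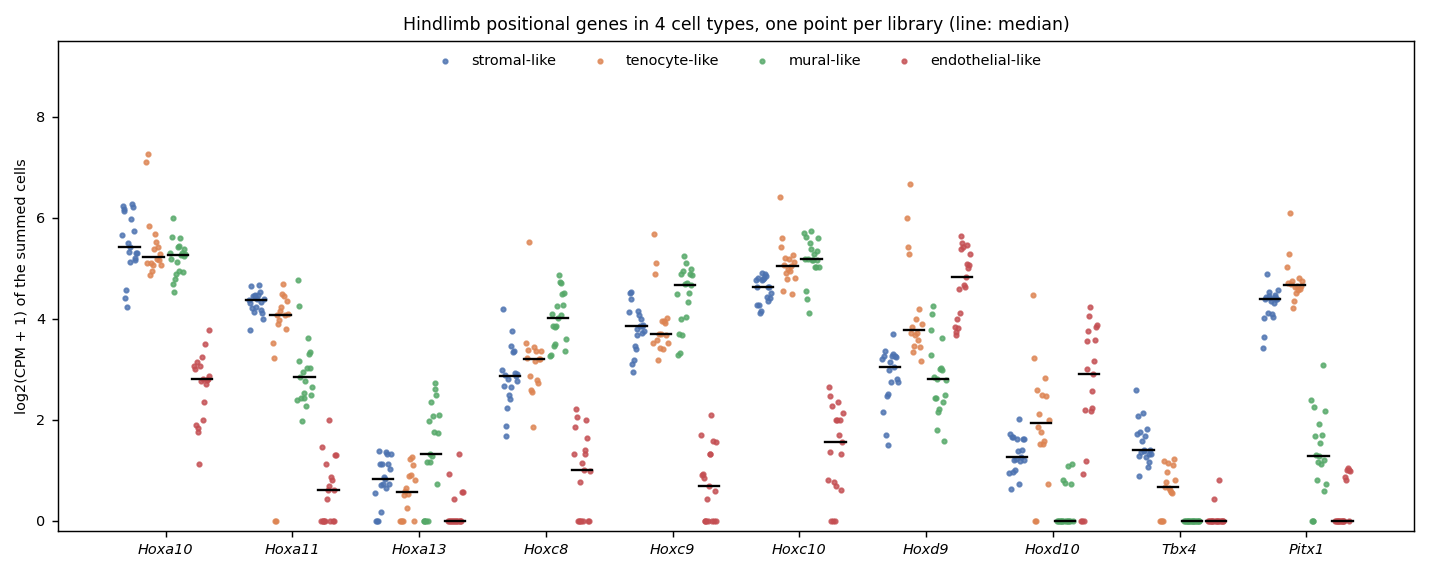
Level of the 10 members as log2(CPM + 1) of the summed cells in the 4 cell types; each point is a library with at least 10 cells of the type and the line is the median. Hoxd9 is higher in endothelial-like than in stromal-like cells, and every endothelial-like library is below every stromal-like library in Pitx1, Hoxa11, Hoxc9 and Hoxc10.

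Other genes of the same families were read from lists, with the named genes taken by smallest p among those called. Of 35 other limb patterning genes 25 were tested in stroma. At day 3 2 were higher and 13 lower than at day 0 (median log2 fold change -0.81, beside 0.02 over all genes, of which 31.5% were higher and 30.5% lower), among them Shox2 (-1.45), Msx1 (-2.38), Isl1 (-3.12) and Zfhx4 (-1.79). At day 7 7 were higher and 6 lower, near the 28.8% and 25.9% of all genes, with Barx2 (3.94) and Prrx2 (1.11) higher and Msx1 (-2.36) and Isl1 (-2.15), itself a factor of the early hindlimb, lower. Tbx5, the forelimb counterpart of Tbx4, was at 3.24 CPM in stroma at day 0, 0.0526 at day 3, 0.409 at day 7 and 1.03 at day 21. These levels are low, and the smallest stromal-like sum of day 0 held 873095 UMIs. No test of Tbx5 is given here, and no difference is read from its levels. In mural-like cells at day 7 3 of 13 were higher and 4 lower, beside 24.7% and 20.2% of all genes, with Prrx1 (1.5) and Tbx18 (2.35), a pericyte gene, higher and Zfhx3 (-1.72) and Tbx2 (-1.59) lower. In endothelial-like cells at day 7 1 of 8 was higher and 3 lower, beside 29% and 27.5% of all genes, with Tbx3 falling from 94.6 to 21.5 CPM (-2.10; adjusted p = 2.57e-07) and Msx1 lower (-1.48). In tenocyte-like cells at day 7 7 of 22 were higher and 1 lower, beside 13% and 6.22% of all genes; Prrx2 was higher (1.22) and Msx1 lower (-2.65).

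The other Hox genes, 31 in the files, were also compared between stroma and vessel. Of the 15 tested between stromal-like and endothelial-like cells 2 were higher and 13 lower in stroma, beside 38% and 37.3% of all genes. Among the HoxB genes, Hoxb7 was at 51.9 ± 10.5 CPM in endothelial-like cells and 0.267 CPM in stroma, Hoxb4 at 34.9 ± 5.18 and 0.287, and Hoxb8 at 28.2 ± 8.25 and 0.0884. In endothelial-like cells at day 7, 4 of 14 were higher than at day 0 and 1 lower, beside 29% and 27.5% of all genes. Hoxd8, the neighbour of Hoxd9, was higher (31.8 CPM at day 0 and 57.6 at day 7; 0.88, adjusted p = 0.000225), as were Hoxb8 (0.71) and Hoxb9 (0.93), and Hoxb5 was lower (-0.76). In the other vessel type Hoxd8 went down: in mural-like cells at day 7 it was at -2.01 (adjusted p = 0.000379). In tenocyte-like cells 3 of 8 passed at day 7, where 6.22% of all genes were lower and 13% higher: Hoxd4 (-2.77), Hoxd8 (-1.35) and Hoxd11 (-2.60), all lower. In stroma 4 of 12 were lower at day 3 and none higher, beside 30.5% and 31.5% of all genes, with Hoxc6 at -1.74.

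Of 4 noncoding RNAs of the clusters tested in stroma, 2 were higher than at day 0 and 0 lower at each of day 3, day 7 and day 21. Of all genes 31.5% were higher at day 3 and 28.8% at day 7, and 31.5% passed at day 21. In endothelial-like cells at day 7, 1 of 4 was higher and 2 lower, beside 29% and 27.5% of all genes. Hotairm1, which lies in the HoxA cluster, was higher in stroma at day 3 (1.28), day 7 (1.07) and day 21 (1.65). It was lower in endothelial-like cells at day 7 (-1.14), where it went from 86.2 to 39.0 CPM. The difference of its changes from day 0 to day 7 passed its own test (-2.20; edgeR adjusted p = 0.000105), the 1 call of 4 tested, beside 13.6% of all genes lower.

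The genes most like the members across 73 sums of the 4 types were found among 8559 genes by Spearman's rho, as a description, since the points share libraries and depth. For Pitx1 these were Olfml3 (0.920), Col1a1 (0.909), Tmem45a (0.909), Vimp (0.908) and Tmem119 (0.905). For Tbx4 they were Slc1a3 (0.849), Bmper (0.847), Ptges (0.840), Sbsn (0.839) and Pdgfra (0.833). For the sum of the 8 Hox members they were Osbpl5 (0.846), Axl (0.845), Bmpr1a (0.841), Sspn (0.839) and Fam26e (0.830).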

How the data were processed

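The deposited files hold raw counts of UMIs per gene and cell barcode, which the authors made with Cell Ranger (mouse genome mm10 in the study's methods; the submitters' processing notes name GRCh38 for most libraries and mm10 for 1, and the gene identifiers are those of mouse) and analysed with Seurat. No normalized value was used. The file of the first library of day 0 held 737280 barcodes and those of the other libraries 614 to 3786. The cells of that library were thus chosen by the filters used here alone. Barcodes under 500 genes or over 25% mitochondrial UMIs were dropped, and the rest were clustered together with scanpy 1.11.5 (Python 3.11.15; 2000 variable genes without the members and listed genes, 30 components, 20 neighbours, Leiden resolution 0.8), and clusters were named from marker lists. Clusters best matched by the list of synovial lining markers were counted as stromal-like. Doublets were not removed, and an alternative took out the 3.9% of cells with the highest Scrublet scores. Counts were summed per library and cell type (at least 10 cells) and tested with edgeR 4.0.16 in R 4.3.3 (TMM factors, filterByExpr, quasi-likelihood F test), with all 5 groups in 1 fit, and with the library as a block between cell types; DESeq2 1.42.0 was an alternative. The tests were also run on simulated counts with the same spread for all genes and changes only in well counted genes, which does not cover calls on few UMIs. Ratios of pooled counts have exact 95% intervals, which cover counting error only, as do upper limits from a floor of 3 counts. Shares of cells were recomputed after each cell was thinned to 1500 UMIs. Coordinates are from the GENCODE annotation of GRCm38 and promoters from RefSeq.

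The members and lists were chosen with earlier results of these data known. All 10 members are named; of the lists, Tbx5 and HoxB genes and otherwise at most 4 genes per list and contrast, called, at 10 CPM or more in a group, by smallest p. The fits by cluster and the interaction were added after seeing the data. Libraries were not paired by replicate number. The deviations from the group mean of libraries with the same number correlated between -0.156 (mural-like, peptide against day 7, replicate 1) and 0.256 (stromal-like, day 21 against day 7, replicate 4). The counts over the list of TALE partners are not reported here.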

Additional observations from a re-analysis of the deposited data

Results flagged for a closer look

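In 6 of 87 groups of 4 libraries with a mean of at least 5 CPM, 1 library stood apart by Dixon's test, which flags about 1 group in 20 by chance. In stroma at day 0 the second library was highest in Hoxc8 (17.2 CPM on 15 UMIs; the others 5.37 to 6.88) and lowest in Hoxd9 (3.44 CPM on 3 UMIs; the others 8.25 to 9.24). In tenocyte-like cells at day 0 the fourth library had 44.6 CPM of Hoxc8 on 4 UMIs (the others 8.35 to 10.5). In mural-like cells at day 21 the third library had 11.3 CPM of Hoxd9 on 10 UMIs (the others 6.95 to 7.14). In endothelial-like cells Hoxa10 was lowest in the third library of day 0 (2.71 CPM on 3 UMIs; the others 7.03 to 7.86) and highest in the third peptide library (12.7 CPM on 26 UMIs; the others 5.86 to 6.32).

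The change from day 0 to day 7 differed between endothelial-like and stromal-like cells, by the interaction test of edgeR, in Hoxd9 (log2 difference 2.02, adjusted p = 0.000106) and in Hoxd10 (5.78, adjusted p = 0.000894). Each moved up in 4 of 4 endothelial-like libraries of day 7 against all of day 0. Hoxd10 passed the filter on low counts only through libraries where it was higher, so its p-value is no independent support for a rise. In a fit on endothelial cluster 12 alone neither gene passed at day 7 (Hoxd9 0.48, adjusted p = 0.521; Hoxd10 6.94 from 0 UMIs at day 0, adjusted p = 0.0635).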

How the results depend on the processing

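Counts below are of members called. The shares of all genes called in these fits are not given here, so no result about the members is read from the counts. Where no value shows it, the cause of a change was not tested. Fits on fewer cells gave, in stroma, 4 at day 3 with cluster 18 left out (7 with all cells), 0 at day 7 (4) and 0 for day 21 against day 7 (3) in cluster 10 alone, where only 3 members passed the filter, and in cluster 17 alone, where only 1 did, and 1 at day 21 with cluster 18 or cluster 31 left out (0); in mural-like cells 0 at day 7 in cluster 19 alone, where neither gene called over all cells could be tested (2); and in endothelial-like cells 0 at day 7 in cluster 12 alone (2) and 0 at day 21 in cluster 12 or cluster 13 alone (2). The direction turned in Hoxc10 in stroma at day 3 with cluster 18 left out (0.22) and in Hoxd9 in endothelial-like cells at day 21 in cluster 13 alone (-0.30). A fit of the 2 groups only gave 1 in mural-like cells at day 7 and 1 in endothelial-like cells at day 21, at most 10% mitochondrial UMIs gave 1 in mural-like cells at day 7, and without the top Scrublet scores tenocyte-like cells at day 21 gave 1. With no filter on low counts stroma differed in 10, 10 and 5 members from endothelial-like, mural-like and tenocyte-like cells (6, 6 and 3), and with at least 20 cells per sum in 5 from tenocyte-like cells. The mean share of stromal-like cells with any member was 13.4% thinned to 1000 UMIs, 18.8% at 1500, 33.1% at 3000 and 72.6% unthinned. Without 1 library each the counts were 5 to 6 in stroma at day 3, 2 to 4 at day 7 (2 without the first of day 0), 0 to 1 at day 21 (1 without the second or the fourth of day 0) and 3 to 3 for day 21 against day 7; 1 to 3 in tenocyte-like cells at day 7 (1 without the third of day 0) and 1 to 3 at day 21 (1 without the third or the fourth of day 0); 1 to 3 in mural-like cells at day 7 (1 without the third or the fourth of day 0); 2 to 2 in endothelial-like cells at both days; 0 to 0 in mural-like cells at day 21 and under the peptide in each type; 6 to 6, 6 to 7 and 3 to 5 between stroma and endothelial-like, mural-like and tenocyte-like cells (5 without the first or the third of day 0); and 2 to 3 and 0 to 0 for the interaction at day 7 and day 21. Outside the fits by cluster, calls that were lost included Hoxa13 and Hoxc10 in stroma at day 3 (adjusted p up to 0.126 and 0.157), Hoxc8 in stroma at day 7 (0.393), Hoxc9 in tenocyte-like cells at day 7 (0.602) and Hoxa11 in them at day 21 (0.165), and Hoxc9 in mural-like cells at day 7 (0.118). In tenocyte-like cells Hoxa10 at day 7 lost its call in 2 of 8 fits that left out 1 library (up to 0.1). Hoxd9 in them at day 21 lost its call under 1 of 9 other settings (0.0885). Whether libraries of the same replicate number share a batch is not known. With a replicate block the counts were 6, 3, 0, 3 and 0 in stroma (day 3, 7 and 21 against day 0, day 21 against day 7, peptide), 2, 2 and 0 in tenocyte-like and 2, 0 and 0 in mural-like cells, and 2, 2 and 0 in endothelial-like cells, and without the library block the cell types differed in 6, 6 and 3. Under the peptide DESeq2 called 70 genes in all in stroma against 6 by edgeR, and 35 against 12 in tenocyte-like cells. The few UMIs of day 0 limit Hoxa13 in stroma, Hoxd10 in endothelial-like cells and every member in tenocyte-like and mural-like cells. Hoxa13 in stroma and Hoxd10 in endothelial-like cells passed the filter on low counts only through the other groups, where they were higher.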

Other observations

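Of the types with no comparison above, lymphatic endothelial-like cells (311 cells in 14 libraries) had the highest HoxD levels, with means over libraries of 79.3 CPM of Hoxd9 (45.7 to 136.1) and 41.7 CPM of Hoxd10 (17.2 to 62.6), beside 4.44 CPM of Hoxa10 and at most 1.51 CPM of any other member. Satellite-like cells, the stem cells of muscle (335 cells in 8 libraries), had HoxA and HoxC members without Pitx1: Hoxc10 was at 77.9 CPM, Hoxa10 at 58.9, Hoxc9 at 58.8 and Hoxc8 at 15.7, while Pitx1 and Hoxd10 had 0 UMIs of 1689958. Tbx4 was at 6.25 CPM there. Skeletal muscle-like cells (104 cells in 3 libraries) had 31.1 CPM of Hoxc10, 22.2 of Hoxa10 and 15.7 of Hoxc9. In Schwann-like cells (405 cells in 12 libraries) no member had a mean over libraries above 3.35 CPM, that of Hoxc9, which reached 12.7 CPM in a single library. In monocyte/macrophage-like cells, with 11163 cells, means were between 0.0247 CPM for Tbx4 and 1.66 CPM for Hoxa10. These values were not tested.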
